A study of Homo sapiens with 12 samples.

Results

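In NCI-H520, a human lung squamous cell carcinoma line, 141 autosomal genes had at least 100 read counts in each of 6 libraries with low *FGGY* counts. The same genes had at most 3 counts in each of 6 libraries with high *FGGY* counts. They are 141 of the 58302 genes in the count table, and 1.41% of the 9965 autosomal genes with at least 100 counts in each of the 6 FGGY-low libraries. Counts in the 12 libraries chose the members, so the gap between FGGY-low and FGGY-high libraries is given as a description without a test. Whether the members differed between the 2 groups inside the FGGY-low set was not used in the choice and was tested. The limit of 100 counts in each FGGY-low library still bounds these changes, since it leaves out genes that fell or rose across it.

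The cells stably carried *L1-FGGY*, a chimeric transcript of a LINE-1 element and the carbohydrate kinase gene *FGGY*, or an empty vector, both delivered by lentivirus. The 12 RNA-seq libraries fall by their labels into 4 groups of 3, which are L1-FGGY cells with 0.2% DMSO (OV-L1-FGGY DMSO), L1-FGGY cells with 10 µM of the 12-lipoxygenase inhibitor ML355, L1-FGGY cells with 450 µM of NVR, which inhibits reverse transcriptase, and a control with 0.2% DMSO, whose label names only DMSO and which was read as the empty vector (OV-CTRL DMSO). The inhibitors were given in medium replaced 5 h after seeding, and the length of treatment is not given in the sources used here. Nothing in the labels tells how the 3 libraries of a group were cultured, so that p-values measure the spread between these libraries, which may be technical.

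*FGGY* was counted 4782 to 6196 times in OV-L1-FGGY DMSO and 5080 to 7346 times with ML355, which together are the FGGY-high libraries. It was counted 78 to 91 times in OV-CTRL DMSO and 82 to 103 times in the libraries labelled NVR, which together are the FGGY-low libraries. The NVR libraries thus lack the *FGGY* level that the L1-FGGY part of their label names, and they are called the libraries labelled NVR throughout. Counts of *FGGY* do not separate the introduced *L1-FGGY* transcript, which holds *FGGY* exon sequence, from native *FGGY* mRNA. The paper reports that *L1-FGGY* lowers *FGGY* expression, so that FGGY-high and FGGY-low describe the counts and not the native gene. Vector, inhibitor and any other difference between the FGGY-low and FGGY-high libraries cannot be told apart, nor can vector and inhibitor between the libraries labelled NVR and OV-CTRL DMSO. Total counts ran from 16242082 to 21011535 in the FGGY-high and from 21792376 to 27004768 in the FGGY-low libraries. Of 17 squamous markers, *KRT5*, *KRT6A*, *DSG3*, *PKP1* and *CALML3* had at most 3 counts in each of the 12 libraries, while the squamous marker *SOX2* and the epithelial marker *KRT19* are themselves members. The squamous lineage factor p63, *TP63*, had 1 to 16 counts in the FGGY-high and 34 to 108 in the FGGY-low libraries. Other squamous markers went the opposite way, with 16304 to 97372 counts of *KRT17* in the FGGY-high and 1 to 6 in the FGGY-low libraries, 3037 to 7746 against 25 to 120 of *TRIM29*, and 697 to 1485 against 0 to 1 of *SERPINB5*.

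A gene that is counted in one set of cells and nearly silent in another is often one whose promoter is switched off by chromatin or lacks its tissue-specific factors. Promoters rich in CpG dinucleotides belong to most broadly used genes and to many developmental regulators, and they can be silenced by DNA methylation or Polycomb. Promoters poor in CpG are typical of genes used in one tissue, such as those of plasma proteins made by the liver. Squamous lung carcinomas usually carry the lineage factors SOX2 and p63.

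The members encode synaptic and cytoskeletal proteins of nerve cells, secreted factors, regulators of transcription, enzymes and channels, among others. Of the 141 members, 130 are protein-coding, 8 are long noncoding RNA genes, 2 are pseudogenes and 1 is a signal recognition particle RNA copy. By role, 18 were proteins of other kinds, 16 were synaptic vesicle and neuronal cytoskeleton proteins, 15 regulators of transcription or RNA, 14 secreted ligands and plasma proteins, 13 metabolic enzymes, 11 receptors and signaling proteins, 11 noncoding RNAs and pseudogenes, and 10 ion channels and their modulators. The smaller roles were axon guidance and neural adhesion (8), enzymes that build or degrade glycans (8), transporters (6), epithelial structure (4), extracellular matrix (4) and innate immunity (3). The roles were assigned by hand with the values in view. The lists of symbols miss some genes of their kind, and none of the listed 67 matrix, integrin and matrix protease genes, 36 receptor kinases and phosphatases, 35 homeobox genes, 15 histone genes, 12 serpins and protease inhibitors, 10 antigen presentation genes and 9 secretory granule genes with at least 100 counts was a member. Members made 1.41% of all autosomal genes with at least 100 counts in each FGGY-low library, so that none in lists of these sizes is near that share. Members of these kinds that the lists do not hold are the matrix genes *VCAN*, *COCH*, *GPC6* and *VWA1*, the LIM-homeobox gene *LMX1B* and *AMBP*, whose product includes the protease inhibitor bikunin.

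In the FGGY-high libraries 68 members had no count at all, 36 had 1 to 3 counts in the 6 libraries together and 37 had 4 or more, up to 13. All members together made 40 to 77 counts in an FGGY-high library, against 1.09% to 1.20% of all counts in OV-CTRL DMSO and 0.581% to 0.765% in the libraries labelled NVR. For a member at 0 in all 6 FGGY-high libraries, the level in OV-CTRL DMSO was compared with a floor of 3 counts in the smallest of these libraries, 0.172 CPM (counts relative to the TMM-scaled library total). On that floor *ALDH1A1* was at least 34320-fold higher, *CXCL5* at least 3223-fold higher and *FOXA2* at least 451-fold higher in OV-CTRL DMSO. The pseudogene *DUX4L9* was at least 25.0-fold higher.

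**Figure D1:**
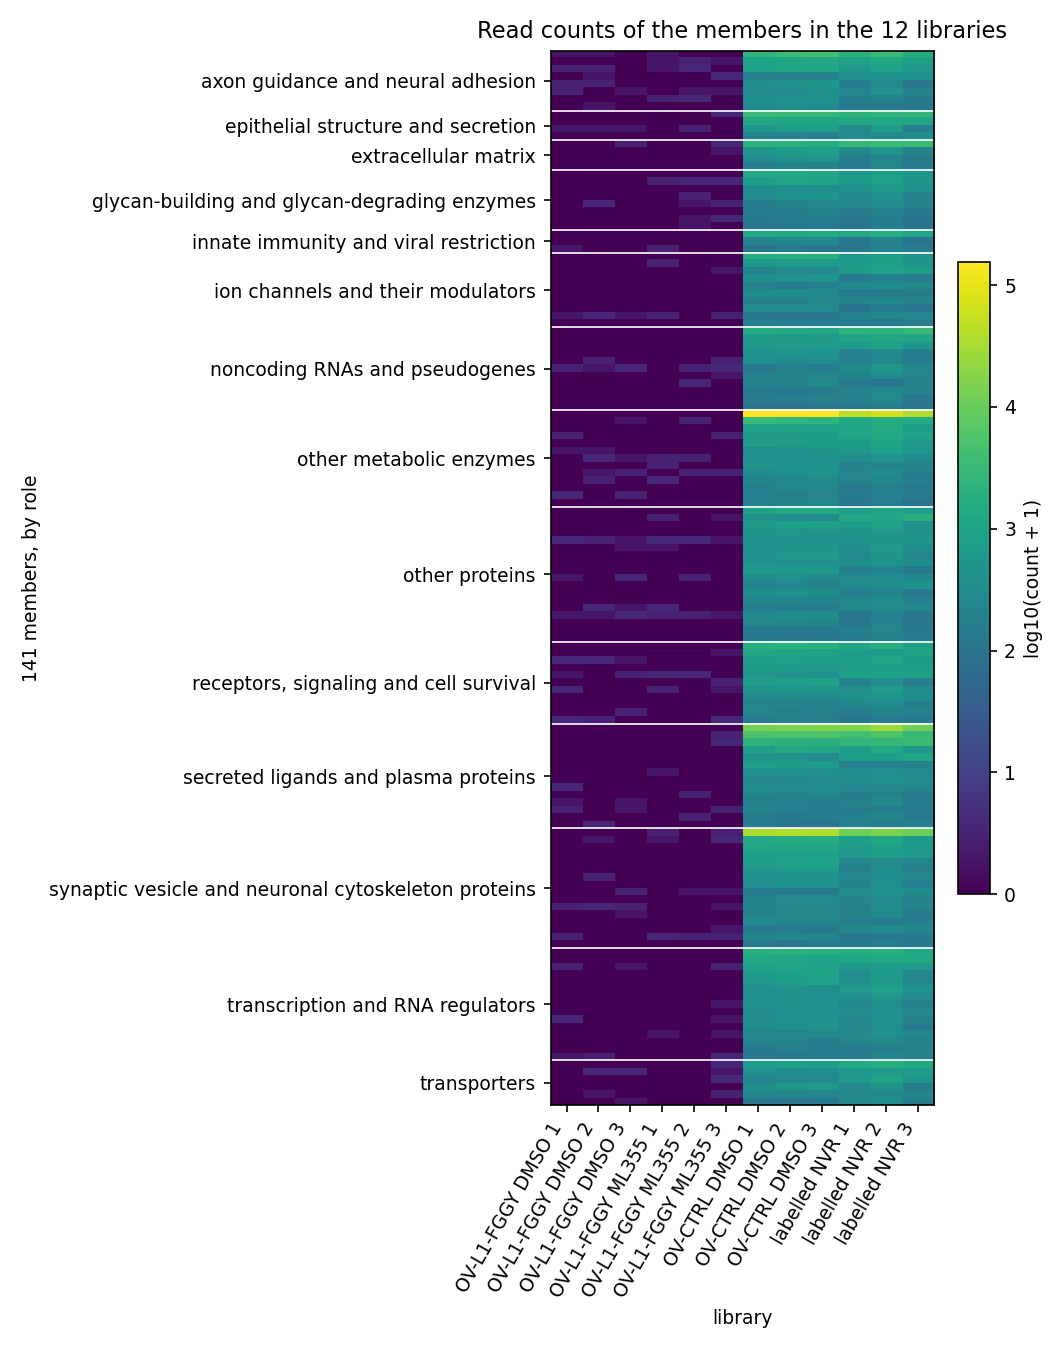
Read counts of the 141 members (rows, grouped by role and ordered by level) in the 12 libraries (columns), as log10 of count plus 1. The 6 FGGY-high columns at the left hold at most 3 counts per cell and the 6 FGGY-low columns at the right at least 100, which is the rule that chose the members.

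The limits cut through a continuous range of counts. Just inside the lower limit of 100 were *DPY19L2*, with a lowest FGGY-low count of 100, and *ST6GAL2* and *LYPD1*, each with 101. Just outside were *AK5* with 99 and *STK32B* and ENSG00000218048 with 95 each. From OV-CTRL DMSO to the libraries labelled NVR these changed by -0.79, -1.81 and 0.27 on the log2 scale. The fall of *STK32B* was larger than that of any member. At the other limit 33 members, among them *KRT19*, *IGFBP2* and *VWA1*, had a highest FGGY-high count of 3, and 24 had one of 2. *SPARC*, *NTRK3* and *RRAD*, with a highest count of 4, were left out. A total of 44 members had a lowest count of 100 to 150, and 14 had one above 1000.

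Scaled per kilobase of exon and per library total (a TPM-like level), the members' mean levels over the 6 FGGY-low libraries ran from 1.48 for *ANO5* to 4729 for *ALDH1A1*. *ALDH1A1*, which oxidises retinal to retinoic acid, was followed by the neutrophil chemokine *CXCL5* (848), the SNARE-binding complexin *CPLX2* (465), the glutathione peroxidase *GPX2* (215) and the simple-epithelium keratin *KRT19* (161). Next came *C19orf81* (127), the long noncoding RNA *LCIIAR* (90.5), the secreted glycoprotein osteopontin, *SPP1* (88.8), the anti-apoptotic *BCL2A1* (87.2) and *PPP1R14A*, an inhibitor of myosin phosphatase (86.3). *ALDH1A1* alone made 52.5% of the members' counts in OV-CTRL DMSO and 33.4% in the libraries labelled NVR.

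Between the libraries labelled NVR and OV-CTRL DMSO, 28 members were higher, 25 were lower and 88 were not called (edgeR adjusted p under 0.01). That is 37.6% called, beside 29.8% of all 17849 genes tested and 37.5% of the autosomal genes with at least 100 counts in each FGGY-low library. By direction, 19.9% of the members were higher and 17.7% lower, beside 17.3% and 20.1% of those autosomal genes and 14.5% and 15.3% of all genes tested. With library size alone in place of TMM, 22 members were higher and 31 lower (41.5% higher of those called, against 52.8%), and the median over all genes tested moved to -0.15. Each of the 53 called members kept its direction under every alternative fit. The share called is near that of these autosomal genes, which share the lower limit of 100 counts but not the level, since their median CPM was 36.1 over the 6 FGGY-low libraries and that of the members 14.4. The members' median log2 fold change was 0.04, against 0.00 over all genes tested, and the median size of the change was 0.55 on the log2 scale, against 0.39 for the autosomal genes with at least 100 counts. CPM of the 2 groups did not overlap for 97 members (68.8%), beside 58.2% of the same autosomal genes and 52.9% of all genes tested. All 53 called members and 44 of the 88 others are among them, and 36 of the 88 had an unadjusted p under 0.05. In bulk RNA, fewer cells that express a gene and less RNA per cell cannot be told apart.

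**Figure D2:**
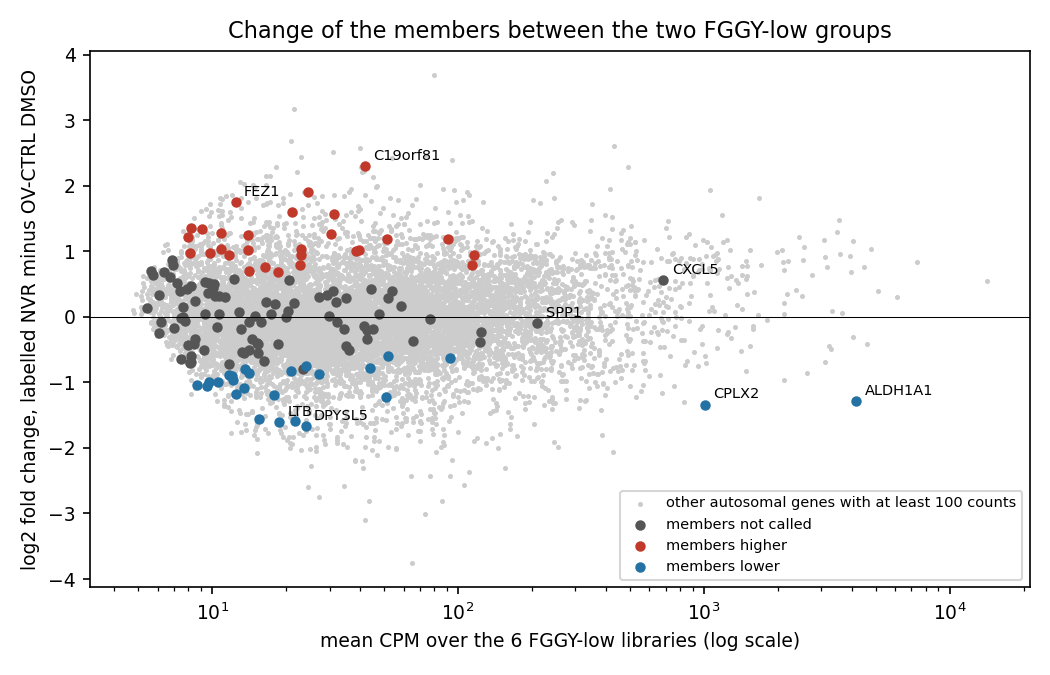
Change between OV-CTRL DMSO and the libraries labelled NVR (vertical, log2 scale, positive where the latter are higher) against mean CPM over the 6 FGGY-low libraries (horizontal, log scale) for the 141 members, colored by the edgeR call, and 9824 other autosomal genes with at least 100 counts in each of these libraries (grey). The members spread to both sides of 0, from -1.67 for DPYSL5 to 2.29 for C19orf81.

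Several values moved with the direction of change. Of the 28 higher members, 19 were highest in replicate 3 of the libraries labelled NVR and lowest in replicate 2, which held for 69.7% of the higher autosomal genes with at least 100 counts. Of the 25 lower members 10 had the opposite order, against 62.2% of the lower autosomal genes. The median exon length was 4506 bases for the higher and 5686 bases for the lower members, and 4257 and 6413 bases for the higher and lower autosomal genes. The part of exon length and of this spread between libraries in the calls was not tested. Of the 53 calls, 34 held without each of the 6 FGGY-low libraries in turn and 19 were lost without at least 1 of them. Without replicate 1 of the libraries labelled NVR 15 members were called lower, and without replicate 2 of OV-CTRL DMSO 16 were.

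**Figure D3:**
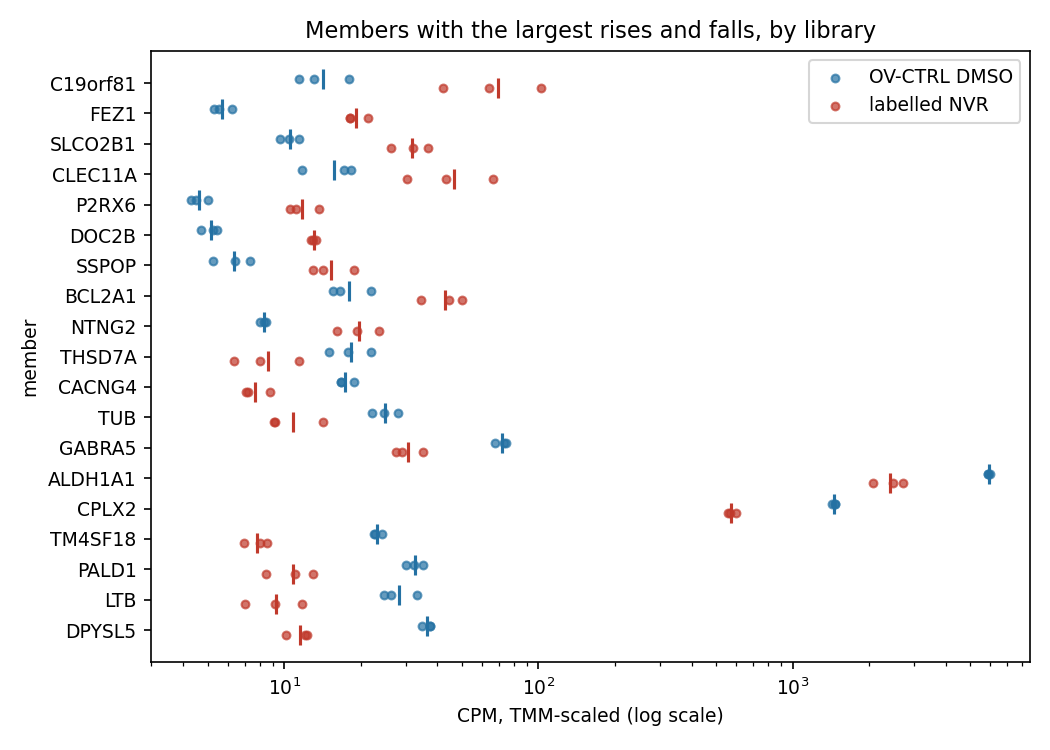
CPM (horizontal, log scale) of members among the 10 largest rises and the 10 largest falls, in each OV-CTRL DMSO library (blue) and each library labelled NVR (red), with the mean as a vertical tick (n = 3). No member shown overlaps between the groups, and C19orf81 and CLEC11A have the widest spread on this scale among the libraries labelled NVR.

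Of the 16 synaptic vesicle and neuronal cytoskeleton members, 4 fell, 2 rose and 10 were not called, with a median log2 fold change of -0.38. *DPYSL5* (ENSG00000157851, chromosome 2 from 26847747 to 26950351 in GRCh38), a collapsin response mediator protein of growing axons, had CPM of 34.7, 37.4 and 37.4 in OV-CTRL DMSO and 12.0, 10.2 and 12.2 in the libraries labelled NVR. Every library labelled NVR was lower than every control. The fold change was 3.18-fold lower (log2 -1.67, SE 0.14, edgeR adjusted p = 2.95e-06). *CPLX2*, which clamps and promotes vesicle fusion, had CPM of 1429, 1468 and 1464 in OV-CTRL DMSO and 555, 570 and 597 in the libraries labelled NVR. The groups lay far apart beside a spread of 21.3 CPM (SD, n = 3) in each, and *CPLX2* was 2.53-fold lower (log2 -1.34, SE 0.13, edgeR adjusted p = 2.58e-06).

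*TUB*, a tubby family protein of neurons, fell from 24.9 ± 2.99 to 10.8 ± 2.88 CPM (SD, n = 3, log2 -1.20, edgeR adjusted p = 0.000468). The membrane skeleton protein *ADD2* fell from 62.2 ± 4.61 to 41.2 ± 5.21 CPM (log2 -0.59, edgeR adjusted p = 0.00501), and its call was lost without replicate 1 or 3 of the libraries labelled NVR or replicate 2 or 3 of OV-CTRL DMSO, with log2 fold changes of -0.61, -0.49, -0.58 and -0.54. In the opposite direction went *FEZ1*, a kinesin adaptor needed for axon outgrowth. Its CPM were 6.23, 5.55 and 5.29 in OV-CTRL DMSO and 18.1, 18.1 and 21.4 in the libraries labelled NVR, which did not overlap. *FEZ1* was 3.37-fold higher (log2 1.75, SE 0.20, edgeR adjusted p = 5.33e-06). *DOC2B*, a calcium sensor of vesicle release, rose from 5.12 ± 0.395 to 13.0 ± 0.288 CPM (log2 1.35, edgeR adjusted p = 8.52e-05).

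The 10 uncalled members of this role include the amyloid precursor binding proteins *APBA2* (log2 -0.34) and *APBB1* (-0.07), the neurofilament light chain *NEFL* (0.31), the microtubule proteins *MAP6* (0.34), *MAP9* (0.05) and *TPPP3* (-0.51), the JNK scaffold *MAPK8IP2* (-0.70), the small GTPase *RAB36* (-0.42), the endocytic recycling protein *EHD3* (-0.51) and the ubiquitin ligase *TRIM9* (0.04). Their edgeR adjusted p ran from 0.0196 for *MAPK8IP2* to 0.901 for *TRIM9*.

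Axon guidance and neural adhesion members were mostly not called or lower, with 3 of 8 lower, 1 higher and a median log2 fold change of -0.44. *NTNG2*, a netrin-G tethered to the membrane, was the one that rose, from 8.50, 8.33 and 8.02 CPM to 19.4, 16.1 and 23.5 CPM (log2 1.25, SE 0.22, edgeR adjusted p = 0.000308). The 2 groups were separate. *LINGO1*, which restrains axon growth and myelination, fell from 12.8 ± 0.587 to 6.17 ± 0.918 CPM (log2 -1.06, edgeR adjusted p = 0.000714). *THSD7A*, a thrombospondin-repeat membrane protein, fell from 18.3 ± 3.54 to 8.59 ± 2.59 CPM (log2 -1.08, edgeR adjusted p = 0.00224), and *LRRN2*, a leucine-rich repeat protein, from 15.3 ± 1.25 to 8.23 ± 0.464 CPM (log2 -0.89, edgeR adjusted p = 0.00209). The call of *THSD7A* was lost without replicate 1 of the libraries labelled NVR (log2 -1.03) and without replicate 2 (-1.10) or 3 (-0.93) of OV-CTRL DMSO. That of *LRRN2* was lost without replicate 1 of the libraries labelled NVR (-0.93) or replicate 2 of OV-CTRL DMSO (-0.82). Not called were *CNTN1*, a contactin (log2 -0.38), the SLIT ligand *SLIT3* (-0.51), the adhesion protein *SDK1* (0.07) and *CNTNAP3B* (0.04). *CNTNAP3B* has near-identical copies, so that its reads could be split or lost in counting.

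Ion channels and their modulators moved both ways, with 3 of 10 higher, 4 lower and 3 not called. The ATP-gated channel subunit *P2RX6* rose from 4.60 ± 0.366 to 11.8 ± 1.70 CPM (SD, n = 3, log2 1.35, edgeR adjusted p = 0.000126). *LYNX1*, which modulates nicotinic receptors, rose from 7.07 ± 0.881 to 14.6 ± 1.69 CPM (log2 1.04, edgeR adjusted p = 0.000828).

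*GABRA5*, a subunit of the GABA-gated chloride channel, had CPM of 67.1, 74.5 and 73.3 in OV-CTRL DMSO and 29.1, 35.2 and 27.5 in the libraries labelled NVR. The groups did not overlap, and *GABRA5* was 2.34-fold lower (log2 -1.23, SE 0.13, edgeR adjusted p = 1.73e-05). The calcium channel subunits *CACNG4* and *CACNA1B* fell by 1.18 and 1.00 on the log2 scale (edgeR adjusted p = 0.000192 and 0.0028), and *LYPD1*, a relative of *LYNX1*, fell by 1.04 (edgeR adjusted p = 0.000786). The call of *CACNA1B* was lost without replicate 1 of the libraries labelled NVR (-0.98) and without replicate 1 (-0.90) or 2 (-0.95) of OV-CTRL DMSO. *CACNG7* (0.30), the scramblase family member *ANO5* (0.51) and the silent potassium channel subunit *KCNF1* (-0.18) were not called. By a list of symbols, 8 of the 52 ion channel genes with at least 100 counts were members (15.4%), beside 1.41% of all such genes. Of those 52 genes, 15 were higher and 7 lower. Apart from zinc finger genes (0.905%), every other list with a member was above 1.41% too. Those shares ran from 1.44% for protein kinases and small GTPase regulators to 7.41% for chemokines, interleukins and acute phase genes. None of these shares was tested.

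Transporters, a role assigned with the values in view, had a median change of 1.11 on the log2 scale, with 4 of 6 higher and none lower. *SLCO2B1*, an uptake carrier of organic anions, had CPM of 9.59, 10.4 and 11.4 in OV-CTRL DMSO and 32.1, 36.6 and 26.3 in the libraries labelled NVR. The 2 groups stood apart (log2 1.595, SE 0.20, edgeR adjusted p = 3.01e-05). The iron exporter ferroportin, *SLC40A1*, rose from 4.78 ± 0.448 to 11.1 ± 2.38 CPM (log2 1.22, edgeR adjusted p = 0.000623) and the lipocalin receptor *SLC22A17* from 31.5 ± 2.23 to 71.8 ± 5.48 CPM (log2 1.19, edgeR adjusted p = 4.57e-05). The ammonium transporter *RHCG* rose from 14.98 ± 2.29 to 30.8 ± 7.11 CPM (log2 1.04, edgeR adjusted p = 0.000696). The sugar carrier *SLC45A1* (0.30) and *CNNM1* (-0.68) were not called. Of the 190 solute carrier genes with at least 100 counts, 47 were higher and 34 lower, and 4 were members. The median log2 fold change of all 326 solute carrier genes tested was 0.15.

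Of the 13 other metabolic enzymes, 3 fell, 2 rose and 8 were not called. *ALDH1A1* (ENSG00000165092, chromosome 9 from 72900671 to 73080442) had CPM of 5865, 5884 and 5968 in OV-CTRL DMSO and 2475, 2724 and 2073 in the libraries labelled NVR. Every control was above every library labelled NVR, and the gene was 2.44-fold lower (log2 -1.28, SE 0.14, edgeR adjusted p = 2.24e-05). *GPX2* fell from 113 ± 18.8 to 73.3 ± 12.8 CPM (log2 -0.63, edgeR adjusted p = 0.00615), and *GGT5*, a gamma-glutamyl transferase, from 17.2 ± 1.82 to 9.92 ± 1.61 CPM (log2 -0.79, edgeR adjusted p = 0.00574). The calls of *GPX2* and *GGT5* were each lost without replicate 1 (log2 -0.61 and -0.79) or 2 (-0.52 and -0.68) of the libraries labelled NVR, and without replicate 1 (-0.49 and -0.72) or 2 (-0.66 and -0.78) of OV-CTRL DMSO. That of *GGT5* was also lost without replicate 3 of OV-CTRL DMSO (-0.87).

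*AKR1B15*, an aldo-keto reductase, rose from 26.2 ± 1.04 to 53.2 ± 3.03 CPM (log2 1.02, edgeR adjusted p = 0.000136). Its close relative *AKR1B10* could share reads with it, so its level is uncertain. *LGSN*, a lens protein related to glutamine synthetase, rose from 16.6 ± 1.67 to 28.8 ± 2.31 CPM (log2 0.80, edgeR adjusted p = 0.000752). Uncalled were the carbonic anhydrase-related *CA8* (0.42), the paraoxonase *PON3* (0.22), the aldo-keto reductase *AKR1E2* (0.04), the phospholipase C *PLCH1* (-0.53), the esterase *AADAC* (-0.15), the NAD glycohydrolase *CD38* (-0.42), the monooxygenase *MOXD1* (-0.02) and the diacylglycerol kinase *DGKG* (-0.65).

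The 14 secreted ligands and plasma proteins included 3 that rose, 1 that fell and 10 not called. *CLEC11A*, a growth factor of bone and blood-forming cells, had CPM of 18.3, 17.2 and 11.7 in OV-CTRL DMSO and 43.1, 30.4 and 66.1 in the libraries labelled NVR. The libraries labelled NVR were all higher but spread widely (log2 1.56, SE 0.26, edgeR adjusted p = 0.000479). *LTB*, the membrane-bound lymphotoxin beta, went down from 33.4, 26.4 and 24.7 CPM to 9.16, 6.998 and 11.7 CPM. Its groups did not overlap, and it was 3.03-fold lower (log2 -1.61, SE 0.21, edgeR adjusted p = 7.22e-05).

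The growth factor binding protein *IGFBP2* rose from 83.4 ± 13.8 to 145 ± 42.7 CPM (log2 0.79, edgeR adjusted p = 0.00696) and the fibrinogen gamma chain *FGG* from 10.7 ± 0.455 to 17.4 ± 0.584 CPM (log2 0.70, edgeR adjusted p = 0.0032). Both calls were lost without replicate 1 of the libraries labelled NVR (log2 0.83 and 0.67) and without replicate 2 (0.80 and 0.68) or 3 (0.68 and 0.73) of OV-CTRL DMSO. That of *IGFBP2* was also lost without replicate 3 of the libraries labelled NVR (0.55), and that of *FGG* without replicate 1 of OV-CTRL DMSO (0.69).

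*CXCL5* had CPM of 517, 556 and 590 in OV-CTRL DMSO and 822, 997 and 625 in the libraries labelled NVR. All 3 of the latter were higher, yet the change was not called (log2 0.56, SE 0.16, edgeR adjusted p = 0.0135). *SPP1* gave overlapping values of 230, 210 and 212 CPM against 212, 211 and 185 CPM (log2 -0.10, edgeR adjusted p = 0.568). Also uncalled were the Wnt antagonist *SFRP1* (-0.20), the chemokine *CX3CL1* (-0.34), the fibrinogen alpha chain *FGA* (0.47), the alpha-1-microglobulin precursor *AMBP* (0.00), the incretin *GIP* (0.87), *INSL4* (-0.18), *IGFL4* (0.51) and *TAFA5* (-0.08).

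Among the 11 receptors, signaling and survival members, 2 rose, 1 fell and 8 were not called. *BCL2A1*, which blocks apoptosis at the mitochondrion, had CPM of 21.9, 16.5 and 15.5 in OV-CTRL DMSO and 44.6, 34.4 and 50.1 in the libraries labelled NVR. The groups were separate (log2 1.26, SE 0.20, edgeR adjusted p = 0.000103). *PALD1*, the phosphatase-like paladin, fell from 30.2, 32.5 and 35.1 CPM to 11.1, 12.9 and 8.50 CPM (log2 -1.58, SE 0.19, edgeR adjusted p = 2.15e-05). The TNF receptor family member *CD40* rose from 12.1 ± 1.00 to 20.6 ± 2.11 CPM (log2 0.76, edgeR adjusted p = 0.00227), which was lost without replicate 1 of the libraries labelled NVR (0.70) or replicate 2 (0.77) or 3 (0.70) of OV-CTRL DMSO. The hedgehog signal transducer *SMO*, at 74.4 ± 4.82 and 57.3 ± 7.05 CPM, was not called (log2 -0.38, edgeR adjusted p = 0.029). *PPP1R14A* (-0.14), *RASSF10* (0.29), *CMTM7* (0.39), *MVB12B* (-0.01), *GRB14* (0.37), *ARHGEF25* (0.25) and *GPR162* (-0.25) were likewise not called.

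Of the 15 regulators of transcription and RNA, 1 rose, 2 fell and 12 were not called, with a median log2 fold change of 0.02. *ID4*, which inhibits basic helix-loop-helix factors, rose from 15.8 ± 2.16 to 30.2 ± 4.48 CPM (log2 0.94, edgeR adjusted p = 0.000752). *MYEF2*, a repressor of the myelin basic protein gene, fell from 35.2 ± 4.26 to 19.1 ± 5.39 CPM (log2 -0.88, edgeR adjusted p = 0.00312), and the T-box factor *TBX18* fell from 30.2 ± 6.15 to 17.9 ± 4.03 CPM (log2 -0.75, edgeR adjusted p = 0.00936). Both calls were lost without replicate 1 of the libraries labelled NVR (log2 -0.82 and -0.82) and without replicate 2 (-0.88 and -0.76) or 3 (-0.78 and -0.59) of OV-CTRL DMSO, and that of *TBX18* also without replicate 3 of the libraries labelled NVR (-0.57).

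The squamous lineage factor *SOX2* had CPM of 15.1, 15.8 and 17.1 in OV-CTRL DMSO and 12.3, 13.3 and 7.02 in the libraries labelled NVR, and no count in the FGGY-high libraries. The 2 FGGY-low groups did not overlap, but the change was not called (log2 -0.55, SE 0.22, edgeR adjusted p = 0.0615). *FOXA2*, a pioneer factor of endoderm, had 77.6 ± 4.69 and 76.1 ± 5.40 CPM (SD, n = 3), which is a difference within the spread (log2 -0.03, edgeR adjusted p = 0.859). *GATA3* (-0.56), the musculin gene *MSC* (0.40), *SOX17* (0.54), *OSR1* (0.40), *LMX1B* (0.78), the splicing regulator *NOVA1* (0.57), *AUTS2* (-0.34), *BEND7* (0.02) and the zinc finger genes *ZNF853* (-0.45) and *ZNF287* (0.23) were not called. Of 221 zinc finger genes with at least 100 counts, 2 were members (0.905%).

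Of the 8 enzymes that build or degrade glycans, 1 rose and 1 fell. *GALNT14*, which starts mucin-type O-glycans, fell from 55.3 ± 2.73 to 32.2 ± 0.845 CPM (log2 -0.78, edgeR adjusted p = 0.000228), while its relatives *GALNT18* (-0.19) and *GALNT16* (0.15) were not called. *WSCD1*, a sulfotransferase-like protein, rose from 14.2 ± 0.327 to 22.8 ± 0.838 CPM (log2 0.68, edgeR adjusted p = 0.00226). That call was lost without replicate 1 of the libraries labelled NVR (0.68) or replicate 2 (0.68) or 3 (0.69) of OV-CTRL DMSO. The lysosomal *GALC* (-0.40), *B4GALT6* (0.44), *ST6GAL2* (-0.07) and *DPY19L2* (0.14) were not called, and *DPY19L2* has close copies that could share its reads.

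In the extracellular matrix *VWA1* rose from 79.4 ± 14.8 to 152 ± 42.1 CPM (log2 0.94, edgeR adjusted p = 0.00189), a call lost without replicate 3 of OV-CTRL DMSO (0.80). The proteoglycan *VCAN* fell from 26.6 ± 6.19 to 15.01 ± 4.004 CPM (log2 -0.82, edgeR adjusted p = 0.00713) and the cochlear matrix protein *COCH* from 16.1 ± 3.07 to 8.26 ± 0.451 CPM (log2 -0.96, edgeR adjusted p = 0.0014). The call of *VCAN* was lost without replicate 1 (-0.79) or 3 (-0.65) of the libraries labelled NVR or replicate 2 (-0.81) or 3 (-0.65) of OV-CTRL DMSO. That of *COCH* was lost without replicate 1 of the libraries labelled NVR (-0.92) or replicate 3 of OV-CTRL DMSO (-0.81). The glypican *GPC6* was not called (-0.06).

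Among the 4 epithelial members, the tight junction gene *CLDN3* rose from 7.95 ± 0.968 to 15.4 ± 4.502 CPM (log2 0.95, edgeR adjusted p = 0.00488). Its call was lost without replicate 1 (0.98) or 3 (0.71) of the libraries labelled NVR or replicate 2 (0.95) or 3 (0.86) of OV-CTRL DMSO. *KRT19* had CPM of 155, 132 and 114 against 114, 90.7 and 138, which overlap (log2 -0.23, edgeR adjusted p = 0.328). The secretory pathway disulfide isomerase *AGR2* (0.29) and *MALL* (-0.80) were not called. None of the 3 innate immunity members was called, namely the inflammasome gene *NLRP2* (0.16), the replication stress factor *SLFN11* (-0.68) and the cytidine deaminase *APOBEC3F* (0.63). Their edgeR adjusted p were 0.249, 0.0217 and 0.0505.

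The largest rise of all members was that of *C19orf81* (ENSG00000235034, chromosome 19 from 50649445 to 50659310), one of 18 proteins of other kinds, of which 3 rose and 3 fell. It had CPM of 18.0, 13.1 and 11.5 in OV-CTRL DMSO and 64.0, 42.2 and 103 in the libraries labelled NVR. The groups did not overlap despite the wide spread of the latter, and the gene was 4.91-fold higher (log2 2.29, SE 0.27, edgeR adjusted p = 1.74e-05). *TM4SF18*, a tetraspan membrane protein, fell from 24.3, 22.4 and 22.8 CPM to 8.56, 7.998 and 6.97 CPM (log2 -1.56, SE 0.16, edgeR adjusted p = 1.24e-05). *RHBDL3*, a rhomboid-like protein, fell by 1.00 and *TMEM98* by 0.90 on the log2 scale (edgeR adjusted p = 0.00034 and 0.00107).

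*FAM43B* and *CCDC33* rose by log2 fold changes of 1.02 and 0.97 (edgeR adjusted p = 0.00507 and 0.00478). The call of *FAM43B* was lost without replicate 3 of the libraries labelled NVR (0.68) and without each of the 3 OV-CTRL DMSO libraries (0.93 to 1.09), and that of *CCDC33* without replicate 1 (0.96) or 3 (0.85) of the libraries labelled NVR and without each of the 3 OV-CTRL DMSO libraries (0.92 to 1.01). The other 12 members of this kind, among them *ABTB3*, *PNMA8A*, *TSPYL5*, *VSTM2L*, *TMEM74B*, *TMEM145*, *C6orf141*, *CCDC184*, *FAM110B*, *C2orf72*, *ERICH5* and *ENTREP2*, were not called.

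Of the 11 noncoding RNAs and pseudogenes, 4 rose, 1 fell and 6 were not called, with a median log2 fold change of 0.50. The long noncoding RNA *LCIIAR* had CPM of 66.8, 52.7 and 47.6 in OV-CTRL DMSO and 119, 89.97 and 171 in the libraries labelled NVR, and its groups did not overlap (log2 1.19, SE 0.21, edgeR adjusted p = 0.000736). *MEG3*, the maternally expressed imprinted RNA of chromosome 14, had CPM of 25.8, 25.5 and 25.2 against 49.7, 45.5 and 59.0. Its control libraries were nearly equal and all below the others (log2 1.01, SE 0.13, edgeR adjusted p = 9.43e-05). *SSPOP*, the pseudogene of SCO-spondin, rose by a log2 fold change of 1.28 (edgeR adjusted p = 0.000264), and ENSG00000247134 by 0.97 (edgeR adjusted p = 0.00261).

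The call of ENSG00000247134 was lost without replicate 1 (1.01) or 3 (0.88) of the libraries labelled NVR or replicate 2 (0.89) or 3 (0.91) of OV-CTRL DMSO. ENSG00000261786 fell by 0.85 on the log2 scale (edgeR adjusted p = 0.000983). *LINC02864* (0.34), *LINC03047* (-0.72), *LINC00173* (0.50), *LINC02506* (0.42), the signal recognition particle RNA copy *RN7SL3* (-0.42) and *DUX4L9* (0.70) were not called. *RN7SL3* and *DUX4L9* belong to families of near-identical copies, and their counts are uncertain for that reason.

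Members were spread over 21 of the 22 autosomes. Their share of the autosomal genes with at least 100 counts was highest on chromosome 8 (11 of 364, 3.02%), followed by chromosomes 15 (9 of 345, 2.61%), 14 (9 of 353, 2.55%), 4 (8 of 336, 2.38%) and 22 (6 of 260, 2.31%). It was lowest on chromosomes 21 (0 of 95), 1 (4 of 1018, 0.393%) and 16 (2 of 496, 0.403%). These shares were not tested.

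**Figure D4:**
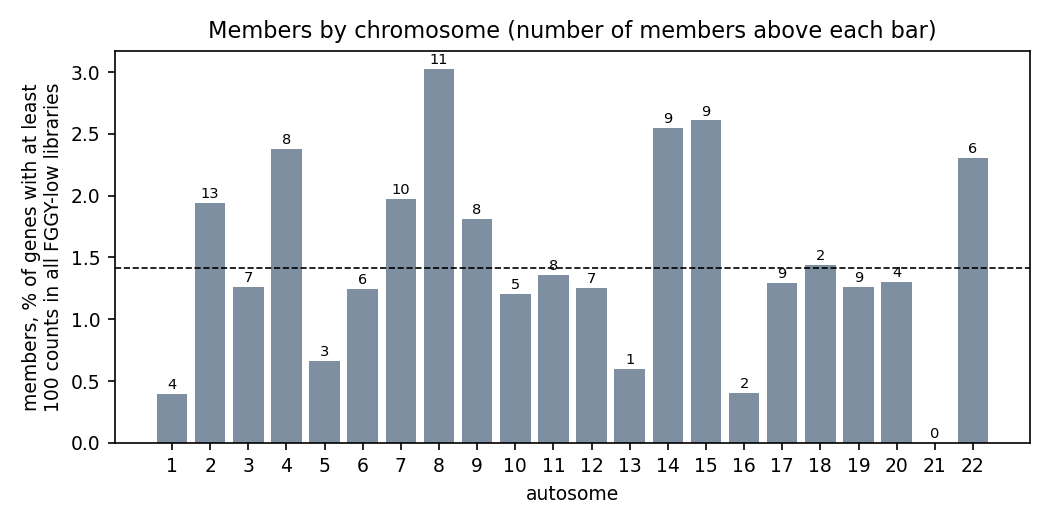
Members as a percentage of the autosomal genes with at least 100 counts in each FGGY-low library, by chromosome, with the number of members above each bar. The dashed line is the share over all autosomes, 1.41%, and chromosome 8 stands highest at 3.02%.

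Most members stood alone, and 11 (7.80%) lay next to another member in the order of genes with at least 100 counts. On chromosome 4 the fibrinogen genes *FGA* and *FGG* lay 13.4 kb apart, and *MAP9*, next in that order, lay 730 kb from *FGG*. The fibrinogen beta chain gene *FGB*, in the same cluster, is no member, with 38 to 49 counts in OV-CTRL DMSO and 10 to 18 in the libraries labelled NVR. On chromosome 15 *APBA2* and *ENTREP2* lay 1.94 kb apart on opposite strands, with *LCIIAR* beyond them and *GABRA5* farther off. The other neighbouring pairs were *GALNT14* with *EHD3* on chromosome 2 and *MVB12B* with *LMX1B* on chromosome 9.

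On chromosome 19, *C19orf81* and *CLEC11A*, both among the largest rises, were neighbours 64.1 kb apart. Genes before them on the chromosome that are no members rose too, namely *LRRC4B* (log2 2.14, edgeR adjusted p = 8.8e-05), *ASPDH* (1.87, edgeR adjusted p = 0.000275), *SYT3* (1.76, edgeR adjusted p = 0.000338) and *NAPSA* (1.04, edgeR adjusted p = 0.00767). Their counts in OV-CTRL DMSO were low, at 85 to 93, 40 to 61, 20 to 29 and 81 to 105 in that order. *GARIN5A* (1.69, edgeR adjusted p = 0.000951), *EMC10* (0.85, edgeR adjusted p = 0.000229) and *NR1H2* (0.63, edgeR adjusted p = 0.00292) rose as well. Not every gene there did so, since *POLD1* fell (log2 -1.78, edgeR adjusted p = 4.65e-08), and *MYH14* (0.29) and *JOSD2* (0.45) were not called. *C19orf81* overlaps *SHANK1* at its end and reads of the overlap could not be assigned without strand.

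The genes next to members were also examined. At least 4-fold higher levels in FGGY-low than FGGY-high libraries were seen for 50 of 266 neighbours that are no members (18.8%), beside 1087 of all 9824 such genes (11.1%). No test was made of this contrast, since it is the one that chose the members.

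Base composition at the transcript start was not used by the rule. In a window of 300 bases around the start of the canonical transcript (250 before, 50 after, GRCh38), 96 of 141 members (68.1%) had a GC content of at least 50% and an observed-over-expected CpG ratio of at least 0.6, as CpG islands have. This was so for 88.2% of the other autosomal genes with at least 100 counts, 77.9% of those at least 4-fold higher in FGGY-low libraries, and 30.8% of all autosomal genes. The median ratio was 0.756 for the members and 0.872 for the other autosomal genes. Island-like starts were found in 14 of the 28 higher, 16 of the 25 lower and 66 of the 88 uncalled members. The median ratio was 0.590 for the higher, 0.796 for the lower and 0.771 for the uncalled members, which was not tested. By role, 15 of 16 synaptic, 14 of 15 transcription and 8 of 8 glycan members had island-like starts, against 3 of 14 secreted and 5 of 13 metabolic members.

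**Figure D5:**
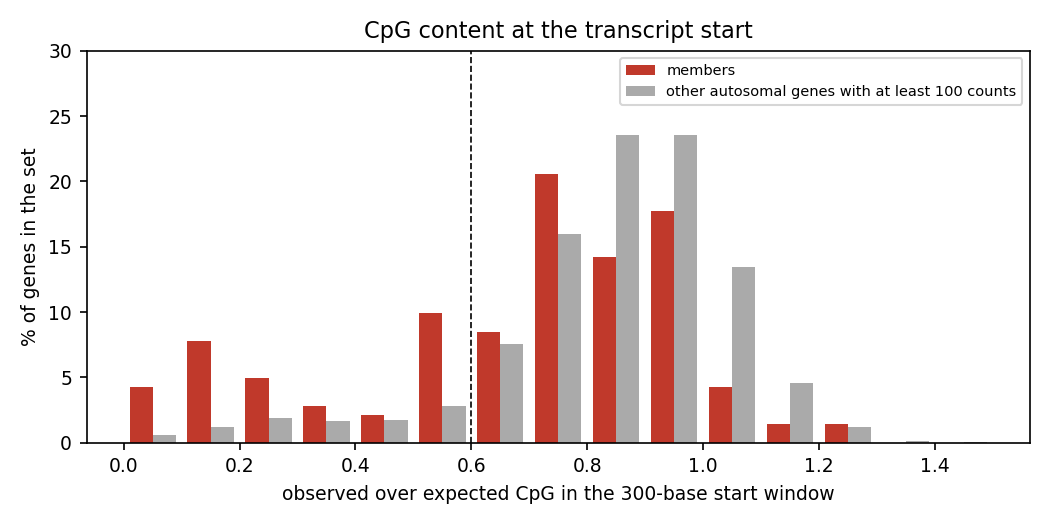
Observed-over-expected CpG ratio (horizontal) in the 300-base start window of the 141 members (red) and the other autosomal genes with at least 100 counts (grey), as a percentage of each set per bin. The dashed line marks 0.6, and the members have a larger share below it.

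The RefSeq windows of 6 members show the range, and are printed because they belong to the largest rises and falls, to the member with the most counts, and to 2 contrasting roles. The RefSeq table has a window of the same length, in GRCh38.p14, for 94 of the 141 members. Each runs 5′ to 3′ on the strand of the gene, and capitals mark CpG dinucleotides, which number 3 in *C19orf81*, 4 in *FGG*, 7 in *ALDH1A1*, 20 in *SOX2*, 28 in *FEZ1* and 34 in *DPYSL5*. For *DPYSL5* the window of the canonical transcript start, used for the shares above, is a different one with 44 CpG and a ratio of 0.940, against 0.821 in the printed one. For the other 5 the number of CpG is the same in both.
C19orf81, chr19:50649195-50649494, plus strand: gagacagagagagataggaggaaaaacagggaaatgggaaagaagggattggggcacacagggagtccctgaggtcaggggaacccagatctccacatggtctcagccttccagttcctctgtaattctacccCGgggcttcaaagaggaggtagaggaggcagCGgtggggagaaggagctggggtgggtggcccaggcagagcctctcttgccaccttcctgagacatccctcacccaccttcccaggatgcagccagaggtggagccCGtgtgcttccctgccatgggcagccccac
FGG, chr4:154612607-154612906, minus strand: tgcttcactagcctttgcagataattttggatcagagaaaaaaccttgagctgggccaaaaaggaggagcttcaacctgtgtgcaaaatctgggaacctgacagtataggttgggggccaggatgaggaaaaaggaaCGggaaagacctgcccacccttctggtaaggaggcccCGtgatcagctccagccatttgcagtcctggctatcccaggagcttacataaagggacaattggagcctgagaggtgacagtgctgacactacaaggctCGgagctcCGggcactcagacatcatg
ALDH1A1, chr9:72953004-72953303, minus strand: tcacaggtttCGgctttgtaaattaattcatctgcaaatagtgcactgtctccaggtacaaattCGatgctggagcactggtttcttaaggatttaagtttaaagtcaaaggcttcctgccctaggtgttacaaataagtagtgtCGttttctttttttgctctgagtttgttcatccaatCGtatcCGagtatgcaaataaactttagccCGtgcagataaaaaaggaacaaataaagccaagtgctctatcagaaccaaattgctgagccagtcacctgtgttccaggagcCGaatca
SOX2, chr3:181711675-181711974, plus strand: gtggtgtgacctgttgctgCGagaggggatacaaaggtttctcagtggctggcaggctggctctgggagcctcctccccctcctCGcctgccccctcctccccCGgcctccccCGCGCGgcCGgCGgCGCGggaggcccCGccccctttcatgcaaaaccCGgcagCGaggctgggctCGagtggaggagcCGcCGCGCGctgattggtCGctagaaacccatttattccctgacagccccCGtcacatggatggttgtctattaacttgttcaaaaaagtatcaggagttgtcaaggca
FEZ1, chr11:125496216-125496515, minus strand: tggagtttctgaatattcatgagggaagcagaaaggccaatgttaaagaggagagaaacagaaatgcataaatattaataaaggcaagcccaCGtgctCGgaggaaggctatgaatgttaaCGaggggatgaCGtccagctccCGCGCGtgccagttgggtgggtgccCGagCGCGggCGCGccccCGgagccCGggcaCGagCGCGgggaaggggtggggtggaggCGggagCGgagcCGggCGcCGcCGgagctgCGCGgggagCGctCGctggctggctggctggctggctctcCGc
DPYSL5, chr2:26847745-26848044, plus strand: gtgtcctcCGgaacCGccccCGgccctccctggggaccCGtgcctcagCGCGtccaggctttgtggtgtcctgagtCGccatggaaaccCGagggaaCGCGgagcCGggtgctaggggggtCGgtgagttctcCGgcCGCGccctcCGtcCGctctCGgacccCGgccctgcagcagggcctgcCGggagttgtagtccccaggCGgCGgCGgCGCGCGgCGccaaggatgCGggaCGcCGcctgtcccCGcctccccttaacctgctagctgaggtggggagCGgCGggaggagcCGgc

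The CpG-poor windows belong to *C19orf81* and *FGG*, which rose, and to *ALDH1A1*, which fell. The CpG-rich windows belong to *FEZ1*, which rose, *DPYSL5*, which fell, and *SOX2*, which was not called. These picked examples do not stand for the members as a set. The TATA box TATAAA, searched on both strands, was found in the window of 11 members (7.80%), 4.60% of the other autosomal genes with at least 100 counts and 16.8% of all autosomal genes. The GC box GGGCGG, searched likewise, was found in 61.7%, 77.0% and 30.7%.

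Markers of other cell types were summed over fixed lists. The 14 neuroendocrine markers summed to 252 to 264 CPM in OV-CTRL DMSO and 200 to 209 CPM in the libraries labelled NVR, with *INSM1*, *NEUROD1* and *GRP* at most 3 counts in each FGGY-low library, and to 39.2 to 53.5 CPM in the FGGY-high libraries. Most of this sum was *ENO2*, a glycolytic enzyme of neurons, which had 5816 to 6027 counts in OV-CTRL DMSO and fell to between 2786 and 4523 in the libraries labelled NVR (log2 -0.56, edgeR adjusted p = 0.000503). Without it the list summed to 17.6 to 20.6 CPM in OV-CTRL DMSO, 41.2 to 47.1 CPM in the libraries labelled NVR and 2.68 to 4.84 CPM in the FGGY-high libraries. The synaptic vesicle protein *SYP* rose (log2 1.92, edgeR adjusted p = 3.59e-06), as did the granule protein *CHGB* (1.29, edgeR adjusted p = 0.00414) and the calcium sensor *SYT1* (0.98, edgeR adjusted p = 0.00102), while *CHGA* (0.90) and *SCG2* (0.07) were not called (edgeR adjusted p = 0.072 and 0.887). *KRT17* and *PERP* made most of the squamous sum in the FGGY-high libraries, and *GPC1* most of it in the FGGY-low libraries. *GPC1* had 7056 to 8878 counts in the FGGY-low and 1112 to 2706 in the FGGY-high libraries, and *SOX2*, *TP63* and *NTRK2* were lower in the latter too. The 17 squamous markers summed to 422 to 469, 517 to 570 and 2236 to 5678 CPM in OV-CTRL DMSO, the libraries labelled NVR and the FGGY-high libraries. The 10 epithelial markers summed to 5132 to 7026, 2922 to 4788 and 952 to 1450 CPM in that order, mostly *KRT7*, *KRT8* and *KRT18*. *EPCAM*, *CLDN4* (964 to 3086 counts against 201 to 478) and *CLDN7* were higher in the FGGY-high libraries, and *CDH1* and *KRT19* lower. The 11 mesenchymal ones summed to 1469 to 1857, 1313 to 1405 and 816 to 1152 CPM, mostly *FN1* and *VIM*. *LUM* (1165 to 4327 counts against 0 to 2), *DCN*, *COL1A1*, *COL3A1* and *ZEB1* were higher in the FGGY-high libraries, and *FN1*, *TWIST1* and *ACTA2* lower. The 8 alveolar, club and adenocarcinoma markers summed to at most 67.4 CPM in each library. The 7 leukocyte markers summed to at most 12.7 CPM in each library and the 4 endothelial ones to at most 9.41 CPM. The part of these differences in the members' levels was not tested.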

How the data were processed

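RNA of 12 libraries of NCI-H520 cells was analysed in 4 groups of 3 taken from the labels. Reads were mapped by the authors to hg38 (STAR 2.5.3a) and assigned to genes (HTSeq 0.11.2) (submitters' processing notes), and the deposited values are whole-number counts without normalization. The annotation release, the strand setting and the handling of multi-mapped reads are not given in the sources used here, and the library kit is named differently in the labels and the methods. Positions and symbols came from GENCODE 44, which matched 57532 of the 58302 gene identifiers.

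Members had at least 100 counts in each FGGY-low and at most 3 in each FGGY-high library, and genes on chromosomes X and Y were dropped (159 genes with them, 141 without). The members and lists were chosen with earlier results of these data known. Differential expression was tested in R 4.3.3 with edgeR 4.0.16 (filterByExpr, TMM, robust quasi-likelihood model with a mean per group, Benjamini-Hochberg adjusted p under 0.01 over 17849 genes). The model was also run on simulated counts, where all groups shared the FGGY-low mean, apart from the genes changed on purpose, and a common spread. That setting does not cover genes at or near 0 in the FGGY-high libraries, as the members are. Limits on counts and floors of 3 counts cover counting error only. CPM are TMM-scaled. Alternatives were DESeq2 1.42.0, limma 3.58.1 voom (the authors' test), other scalings, filters, thresholds and count limits, a fit of the 2 groups alone, a replicate block, and leaving out each library.

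Genes were named as the 10 largest rises and 10 largest falls among called members without overlap, the 10 highest levels per length, members of symbol lists (up to 6 a list), adjacent members, members and genes nearest the limits (3 each), and 5 uncalled members with the most counts. Other members, single marker genes, and non-members of the chromosome 19 and 4 clusters, were named by role or position after their values were seen. Of the genes these rules name, 1 member and its values are not reported here, though counts and medians include it. Figures were drawn with matplotlib 3.10.9 in Python 3.11.15.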

Additional observations from a re-analysis of the deposited data

How the results depend on the processing

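Of 793 values of the 61 members that the naming rule picks, under alternatives, 723 kept direction and side of the threshold, 30 lost the call, 22 gained it and 18 turned sign. The sign turned for 6 members that were not called. AKR1E2, MAP9 and DPY19L2 gave -0.12, -0.11 and -0.013 with library size alone. MVB12B gave 0.0335 with DESeq2 and 0.0327 with its size factors in edgeR, and FOXA2 gave 0.0103 with either. Without 1 library each, PPP1R14A ran from -0.43 to 0.053, AKR1E2 from -0.030 to 0.11, MVB12B from -0.12 to 0.055, MAP9 from -0.043 to 0.12 and FOXA2 from -0.090 to 0.013.

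Members called higher and lower were 28 and 25. They were 18 and 13 when a log2 change of 1 or more was also asked for, 39 and 39 at an adjusted p under 0.05, 40 and 29 with DESeq2, and 40 and 34 with voom. Library size alone gave 22 and 31. Without 1 library each, members called higher ran from 19 to 30 and lower from 15 to 28. All genes called numbered 5316, 2344 with that demand, and 3510 to 6107 without 1 library each, the lowest without replicate 2 of OV-CTRL DMSO. In every alternative fit 18 of the 28 and 15 of the 25 remained called. Limits of 50 and 5 counts gave 298 members and limits of 200 and 1 counts gave 43, while limits in CPM shared 97. The cause of these shifts was not tested.

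The labels do not say whether equal replicate numbers share a day or passage. Deviations of same-numbered libraries correlated at 0.051, 0.170 and -0.354, which cannot decide it, since libraries of unequal number were not compared. With the replicate number as a block, 24 members were called higher and 21 lower, and 4754 of all genes were called. Depth limits members near 100 counts, where a change under the spread between 3 libraries was not detectable.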
